A study of Homo sapiens with 12 samples.

Results

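The transcription factor NF-kB is held in the cytoplasm by inhibitor of kB (IkB) proteins and, once freed by an upstream kinase, switches on genes that include its own inhibitors. Newly made IkB alpha pulls NF-kB out of the nucleus again, while the ubiquitin-editing protein A20 and its partners shut the pathway off nearer to the receptor. In epithelial cells double-stranded RNA starts this pathway through RIG-I-like sensors together with the interferon response. The genes described here are 9 members of this loop, chosen by symbol from 58671 gene rows. The classical IkB proteins are encoded by NFKBIA (IkB alpha), NFKBIB (IkB beta) and NFKBIE (IkB epsilon), and the nuclear, atypical ones by NFKBIZ (IkB zeta) and BCL3. The regulators nearer to the receptor are TNFAIP3 (A20), TNIP1 (ABIN-1, an A20-binding ubiquitin binder), BIRC3 (cIAP2, a ubiquitin ligase) and TRAF1 (an adaptor of the TNF receptor family).

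The cells were A549, an established human line from a lung carcinoma that keeps an epithelial character. The 4 groups were RLKO cells, a knockout line made from A549, 6 h after transfection of poly(I:C) at 500 ng/ml, untreated RLKO cells, parental (WT) cells 6 h after the same transfection, and untreated WT cells, with 3 samples each and 12 in all. Poly(I:C) is a synthetic double-stranded RNA. The comparison asks how the response to poly(I:C) differs between the knockout line and its parent. Whether the knockout line is 1 clone, and whether untreated cells received transfection reagent, the sources used here do not give.

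The deposited table gave 1 level per group in FPKM, a count of fragments normalised for transcript length and library size, pooled over the 3 samples, so no value here has an error from replicates and the read depth is unknown. "Rose" is used only where the authors' q-value within a genotype, treated against untreated, was under 0.05 with a higher treated value. Differences between the genotypes carry no test. Log2 changes were computed after division by a factor per group from 49 spike-in RNAs and addition of a pseudocount of 1 FPKM, which understates the change of low genes. On that scale the median change of 12181 protein-coding genes was -0.24 in RLKO and -0.70 in WT cells, and in FPKM as deposited it was -0.10 and -0.17, and each change has to be set against that median. In bulk RNA, fewer cells and less RNA per cell cannot be told apart.

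The epithelial keratins KRT8 and KRT18 were at 256 FPKM or more in every group, and EPCAM was low, at most 1.03 FPKM. A further epithelial keratin, KRT19, stood at 46.3 FPKM in treated and 54.0 FPKM in untreated RLKO cells, and at 6.64 FPKM in treated and 14.4 FPKM in untreated WT cells. The leukocyte marker PTPRC, the T cell marker CD3E and the endothelial markers PECAM1 and VWF were at most 0.165 FPKM. CD68, a lysosomal protein used as a macrophage marker, stood at 15.9 to 24.1 FPKM, and of the fibroblast markers COL1A1 was at 2.06 to 7.17 FPKM and PDGFRB at most 0.577 FPKM.

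NFKBIB could not be described. It was listed at 0.00602 FPKM in treated and 0.0220 FPKM in untreated RLKO cells, and at 0 in treated and 0.00674 FPKM in untreated WT cells, with no test made. The gene lies on chromosome 19, 38899700 to 38908893 (GRCh38), in an unbroken run of 17 protein-coding genes, 357 kb long, that were all under 0.1 FPKM in every group. Of these, 14 were listed at exactly 0, among them HNRNPL, EIF3K, ECH1 and MRPS12, which encode a splicing factor, a translation factor subunit, a lipid-oxidising enzyme and a mitochondrial ribosomal protein that most cells use. Of all protein-coding rows 23.6% were under 0.1 FPKM in every group, and 25 runs held at least as many genes, this one included. At one end of the run MAP4K1, RYR1 and RASGRP4 were low, at most 1.24 FPKM. Beyond the other end FBXO27 stood at 2.10 to 3.64 FPKM and PAK4 at 32.7 to 38.5 FPKM, with ACP7 between them under 0.1 FPKM. NFKBIB is therefore given only as listed, and the other 8 members, all of which passed a filter of 1 FPKM in some group, are those counted below.

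Several of these genes are known targets of NF-kB, which binds kappa-B sites in DNA, so their promoter sequences are shown beside the responses. RefSeq promoter windows (GRCh38.p14, 250 bases before to 50 after each transcript start) were found for 8 of the 9 members (all but NFKBIE), 13 windows in all, and searched on both strands for the 10-base kappa-B consensus. A match was found in 8 of the 13 windows and for 7 of these 8 genes, NFKBIB included, TRAF1 having none in its 3 windows. Of all 35116 windows 5.91% held one, and of all 27305 genes 7.09%. Because the genes were chosen for their place in the NF-kB loop, several as known targets, this contrast is no test. Matches of the measured members are shown 5′ to 3′ on the gene's strand with the matching bases in capitals; they are matches of letters and not measured binding sites.
NFKBIA, chr14:35404811-35404840, minus strand: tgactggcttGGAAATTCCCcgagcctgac
NFKBIZ, start 1, chr3:101827757-101827786, plus strand: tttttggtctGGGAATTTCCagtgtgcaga
NFKBIZ, start 2, chr3:101849265-101849294, plus strand: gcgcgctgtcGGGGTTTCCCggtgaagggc
TNFAIP3, distal match, chr6:137867182-137867211, plus strand: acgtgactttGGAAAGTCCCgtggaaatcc
TNFAIP3, proximal match, chr6:137867194-137867223, plus strand: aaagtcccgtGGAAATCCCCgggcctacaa
TNIP1, start 2, chr5:151081057-151081086, minus strand: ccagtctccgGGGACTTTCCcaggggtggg
BIRC3, distal match, chr11:102317275-102317304, plus strand: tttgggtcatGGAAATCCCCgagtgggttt
BIRC3, proximal match, chr11:102317339-102317368, plus strand: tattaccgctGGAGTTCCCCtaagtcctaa
BCL3, chr19:44748700-44748729, plus strand: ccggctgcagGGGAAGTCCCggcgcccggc

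The match of NFKBIA is the reverse complement of the match at the first NFKBIZ start, the distal TNFAIP3 match is that of the TNIP1 match, and the proximal TNFAIP3 match is identical to the distal BIRC3 match. TNFAIP3 and BIRC3 each carried 2 matches in 1 window, and those of TNFAIP3 began 67 and 55 bases before the start. Of the genes with matches, NFKBIA, NFKBIZ and TNFAIP3 rose in both genotypes and TNIP1 in WT. BCL3 and BIRC3, also with matches, had higher treated values in both lines but missed the q threshold. TRAF1, without a match in its windows, rose in both genotypes. Whether a match goes with the response was not tested.

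**Figure D1:**
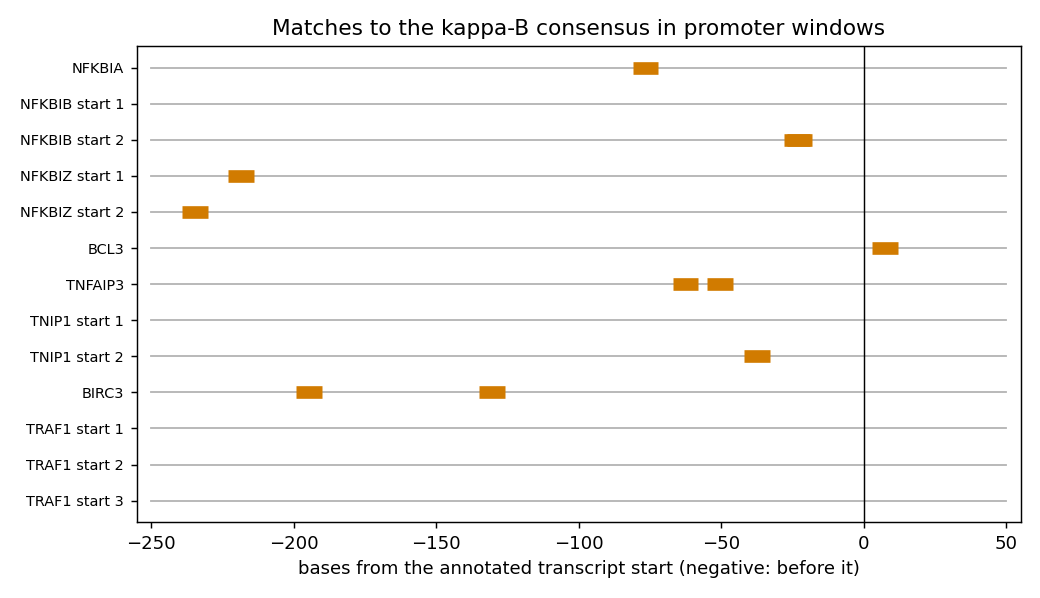
Position of each match to the kappa-B consensus (orange) along the promoter windows (grey lines) of 8 genes, in bases from the annotated transcript start (horizontal axis); genes with several starts have a line for each. TNFAIP3, BIRC3 and the second start of NFKBIB had 2 matches each, those of NFKBIB overlapping. The 3 TRAF1 windows and the first starts of NFKBIB and TNIP1 had none.

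Poly(I:C) raised NFKBIA, NFKBIZ, TNFAIP3 and TRAF1 in both lines and TNIP1 in WT cells, and none of the 8 measured members fell. In RLKO cells 4 of 8 rose, where 0.512% of the 22087 gene rows kept were called higher and 0.0272% lower. In WT cells 5 of 8 rose, where 4.48% of rows were called higher and 3.35% lower. The unadjusted p was under 0.05 for all 8 in each genotype, and all 8 had a higher treated value. Of the rows kept, 1.44% had such a p with a higher and 2.23% with a lower treated value in RLKO, and 9.22% and 9.98% in WT. The median log2 change of the 8 was 1.54 in RLKO and 1.77 in WT cells. The p-values of the 4 genes that rose in both were 5e-05 in the authors' deposited table, the smallest it holds.

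Among the classical IkB genes NFKBIA (chromosome 14, 35401511 to 35404749) had by far the highest level. It stood at 303 FPKM in treated and 68.0 FPKM in untreated RLKO cells, and at 895 FPKM in treated and 88.4 FPKM in untreated WT cells. It rose in both lines, by 1.96 in RLKO (q = 0.0107 in the authors' deposited table) and by 2.71 in WT (q = 0.00180) on the log2 scale. NFKBIA was the most abundant of the 8 in each group, with 40.2% of their summed FPKM in treated and 32.9% in untreated RLKO cells, and 46.9% in treated and 38.3% in untreated WT cells.

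NFKBIE (chromosome 6, 44258166 to 44265788), whose product also binds NF-kB in the cytoplasm, had 27.0 FPKM in treated and 10.5 FPKM in untreated RLKO cells, and 39.9 FPKM in treated and 14.0 FPKM in untreated WT cells. Its log2 changes of 1.11 and 0.86 passed in neither genotype (q = 0.955 in RLKO and 0.204 in WT in the authors' deposited table). The treated value was higher in both lines, and the changes of the 2 lines lay close together.

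Of the nuclear IkB genes NFKBIZ rose in both lines and BCL3 passed in neither. NFKBIZ (chromosome 3, 101827991 to 101861022), whose protein acts with NF-kB p50 at a set of secondary target genes, had 46.0 FPKM in treated and 6.29 FPKM in untreated RLKO cells, and 341 FPKM in treated and 4.06 FPKM in untreated WT cells. It rose by 2.52 in RLKO (q = 0.0107 in the authors' deposited table) and by 5.53 in WT (q = 0.00180) on the log2 scale. In WT cells it moved to the second most abundant of the 8 genes, with 17.9% of their summed FPKM after treatment and 1.76% before. In RLKO cells the same shares were 6.09% and 3.04%.

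BCL3 (chromosome 19, 44747705 to 44760044), which binds p50 and p52 dimers in the nucleus, had 15.4 FPKM in treated and 9.03 FPKM in untreated RLKO cells, and 28.1 FPKM in treated and 12.4 FPKM in untreated WT cells. Its log2 changes, 0.54 and 0.53, were the lowest of the 8 in each genotype, and it passed in neither (q = 1.00 in RLKO and 0.138 in WT in the authors' deposited table).

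Of the regulators nearer to the receptor, TNFAIP3 (chromosome 6, 137867188 to 137883312) had the largest change in RLKO cells. Its level was 93.9 FPKM in treated and 4.22 FPKM in untreated RLKO cells, and 251 FPKM in treated and 4.98 FPKM in untreated WT cells. It rose by 4.02 in RLKO and by 4.84 in WT on the log2 scale, with the same q-values as NFKBIA in the authors' deposited table. An antisense transcript, AL357060.1, overlaps TNFAIP3 by 1046 bases and stood at 1.16 FPKM in treated and 0.0876 FPKM in untreated RLKO cells, and at 8.73 FPKM in treated and 0.0635 FPKM in untreated WT cells. The sources used here do not say whether reads were assigned by strand, so reads of the shared bases cannot be told apart; TNFAIP3 was far above it in each group.

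TNIP1 (chromosome 5, 151029945 to 151093577), the partner of A20, had a higher untreated level than TNFAIP3 and a smaller log2 change in each line. It had 150 FPKM in treated and 63.1 FPKM in untreated RLKO cells, and 221 FPKM in treated and 66.5 FPKM in untreated WT cells. It rose in WT by 1.11 (q = 0.0225 in the authors' deposited table). Its change in RLKO, 1.06, missed the threshold (q = 0.272). The call thus differed between genotypes, while the log2 changes differed by 0.05 on the spike-in scale. In FPKM as deposited the log2 changes were 1.23 in RLKO and 1.72 in WT, and the q-values do not test the spike-in scaled changes. Within a group, free of any scaling, the ratio of TNFAIP3 to TNIP1 was 0.627 in treated and 0.0670 in untreated RLKO cells, and 1.14 in treated and 0.0749 in untreated WT cells.

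BIRC3 (chromosome 11, 102317450 to 102339403) was the one gene of the 8 with nearly the same treated level in both lines. It had 111 FPKM in treated and 44.4 FPKM in untreated RLKO cells, and 111 FPKM in treated and 38.4 FPKM in untreated WT cells. Its log2 changes of 1.13 and 0.90 passed in neither (q = 0.701 in RLKO and 0.132 in WT in the authors' deposited table). TRAF1 (chromosome 9, 120902393 to 120929173) was the least abundant, with 8.40 FPKM in treated and 1.19 FPKM in untreated RLKO cells, and 21.2 FPKM in treated and 1.91 FPKM in untreated WT cells. It rose by 1.96 in RLKO (q = 0.0107 in the authors' deposited table) and by 2.44 in WT (q = 0.00180) on the log2 scale.

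**Figure D2:**
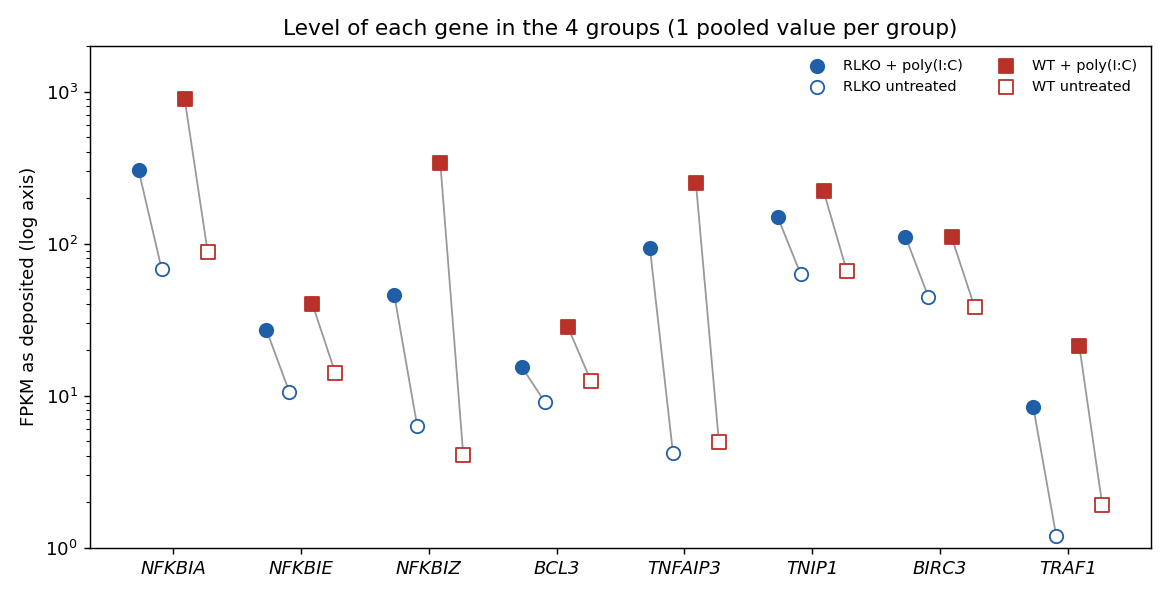
FPKM as deposited (vertical log axis) of 8 genes in RLKO cells (blue circles) and WT cells (red squares), filled after poly(I:C) and open untreated; each point is 1 value pooled over 3 samples with no error, and grey lines join the pairs. NFKBIZ reached 46.0 FPKM in treated RLKO and 341 FPKM in treated WT cells, while BIRC3 stood at 111 FPKM in both.

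The order of the genes by level was the same in both untreated lines apart from NFKBIZ and TNFAIP3, which changed places at 6.29 and 4.22 FPKM in RLKO and 4.06 and 4.98 FPKM in WT cells. NFKBIA, TNIP1 and BIRC3 led in untreated cells and also in treated RLKO cells. In treated WT cells NFKBIZ and TNFAIP3 stood above TNIP1 and BIRC3. With no error on the values, which neighbours in these orders differ could not be tested.

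Set directly against each other, the treated lines differed most for NFKBIZ. On the spike-in scale the level in treated RLKO cells was 0.149 of that in treated WT cells for NFKBIZ, 0.374 for NFKBIA, 0.412 for TNFAIP3 and 0.437 for TRAF1. These 4 genes had a log2 difference of -1 or lower, a size that 4.93% of protein-coding genes reached, whose median was 0.25. For BCL3, NFKBIE and TNIP1 the same level ratios were 0.603, 0.746 and 0.749, and for BIRC3 1.11. NFKBIZ held the 11th lowest log2 difference, -2.72, of the 12181 protein-coding genes. None of these differences carries a test.

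Untreated RLKO cells had lower levels than untreated WT cells for 7 of the 8 on the spike-in scale, with ratios of 0.509 for TRAF1 to 0.944 for BIRC3, and a higher one for NFKBIZ, at 1.26. In FPKM as deposited the ratio for BIRC3 was 1.16, so its direction turned with the scale. No member differed by 1 or more on the log2 scale, a size that 1.33% of protein-coding genes reached downwards. For NFKBIE the untreated log2 difference, -0.66, was further from 0 than the treated one, -0.41, and for BCL3 they were nearly equal, at -0.70 and -0.69. The median untreated log2 difference of the 8 was -0.53 and that of protein-coding genes -0.24, and in FPKM as deposited these were -0.28 and 0.01.

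The difference of the responses, the log2 change in RLKO minus that in WT, split the genes. NFKBIZ stood apart at -3.01, the 9th lowest of 12181 protein-coding genes, followed by TNFAIP3 at -0.82, NFKBIA at -0.75 and TRAF1 at -0.48. The other 4 lay between -0.05 and 0.25, BCL3 at 0.01, TNIP1 at -0.05, BIRC3 at 0.23 and NFKBIE at 0.25. The value of TRAF1, which was low in untreated cells, depends on the pseudocount. With 0.1 FPKM it was -0.26, while TNFAIP3 stood at -0.76 and NFKBIA at -0.75. In FPKM as deposited all 8 were negative, from -3.39 for NFKBIZ to -0.17 for NFKBIE, so the direction of BCL3, BIRC3 and NFKBIE turned with the scale. Of protein-coding genes 4.42% had a difference of -1 or lower, and their median was 0.47; all 8 members lay below that median. The ratio of NFKBIZ to NFKBIA within a group, which no scaling can move, was 0.152 in treated and 0.0924 in untreated RLKO cells, and 0.381 in treated and 0.0459 in untreated WT cells.

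**Figure D3:**
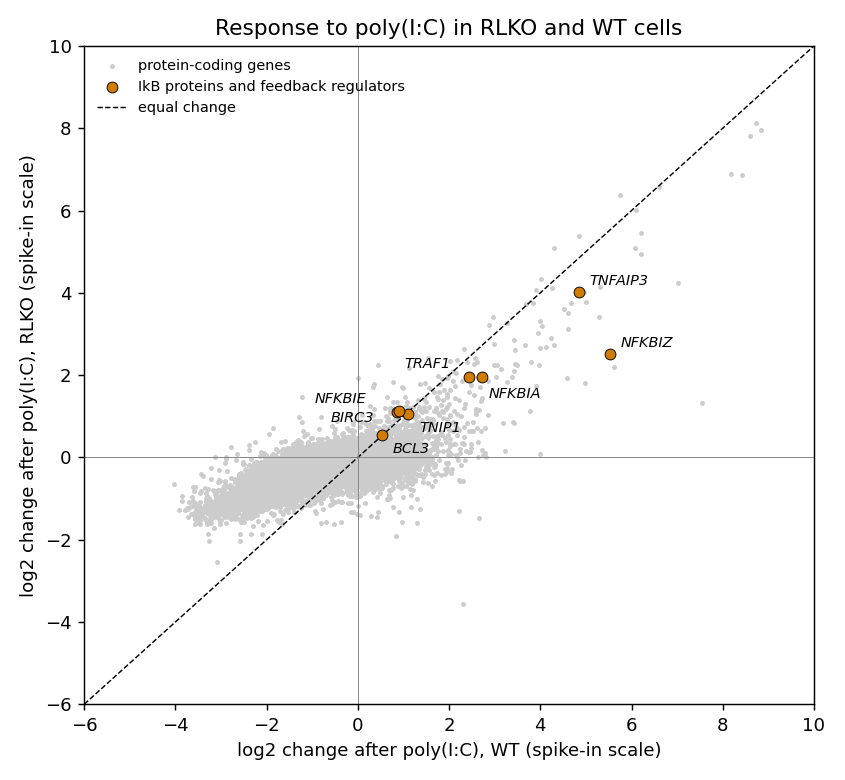
Log2 change of treated over untreated cells on the spike-in scale in RLKO (vertical axis) against WT (horizontal axis) for 12181 protein-coding genes (grey) and the 8 measured members (orange); the dashed line marks equal change. NFKBIZ lies far below the line at 2.52 and 5.53, and BCL3, TNIP1, BIRC3 and NFKBIE lie near it.

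The members also differ in features of their transcripts. In the authors' deposited table half-lives taken from another study were given for 6 of the 8, in a unit the header does not state. They were 2.17 for NFKBIA and NFKBIZ, 2.22 for TNFAIP3, 2.53 for BCL3, 2.94 for NFKBIE and 7.27 for TNIP1, against a median of 4 over 9527 protein-coding genes. Only 2.41% of those genes had a half-life at or below that of NFKBIA and NFKBIZ. NFKBIA, NFKBIZ and TNFAIP3, with the shortest listed half-lives of the 6, rose in both genotypes. BCL3, whose change was the lowest of the 8, had a listed half-life near theirs, and TNIP1, which rose in WT, had the longest. Whether half-life goes with the size of the response was not tested.

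AU-rich pentamers (ATTTA), the core of elements that shorten the life of many cytokine mRNAs, were counted in the 3′ untranslated region of 1 GENCODE transcript per gene. There were 5 in BIRC3 and in TNFAIP3, 3 in NFKBIA and in NFKBIZ, 1 in TRAF1 and none in NFKBIE, BCL3 and TNIP1, where the median protein-coding gene had 2. Per kilobase BIRC3 had 7.91, NFKBIA 5.98, TNFAIP3 2.51 and NFKBIZ 1.82, above a median of 1.73, and TRAF1 had 0.381, below it, as were the 3 genes with none. The BIRC3 values rest on a 3′ untranslated region of 632 bases in the chosen transcript, whereas the authors' deposited table lists 2300 bases.

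Other genes of the pathway were counted by role, from 6 lists of 65 genes of which 60 passed the filter of 1 FPKM in some group. In RLKO cells 5 of the 60 rose and none fell, all of them NF-kB target genes. In WT cells 16 rose and none fell, 11 of them target genes, 3 other inhibitors and 2 subunits. Of the 22087 rows kept, 0.512% were called higher and 0.0272% lower in RLKO, and 4.48% and 3.35% in WT. In RLKO an unadjusted p under 0.05 was held by 1.44% with a higher and 2.23% with a lower treated value. In WT these shares were 9.22% and 9.98%.

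Of the 5 NF-kB subunit genes Cuffdiff called none in RLKO, where 1 had an unadjusted p under 0.05, and 2 rose in WT. With 0.512% of all rows kept called higher in RLKO and 4.48% in WT, the lack of a call in RLKO is no result about these genes. REL had 7.63 FPKM in treated and 4.44 FPKM in untreated RLKO cells, and 14.9 FPKM in treated and 2.89 FPKM in untreated WT cells, rising in WT by 1.51 on the log2 scale. NFKB2, the p100 precursor that itself acts as an IkB protein, rose in WT by 1.36, with 110 FPKM in treated and 27.4 FPKM in untreated cells. The list's medians were 0.51 in RLKO and 0.58 in WT.

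For the signalling parts of the pathway Cuffdiff made no call in either genotype, among 10 genes of the IkB kinase and its activators, 12 receptors and adaptors and 4 genes of ubiquitin chain assembly. Of all rows kept, 0.512% were called higher and 0.0272% lower in RLKO and 4.48% and 3.35% in WT, so a count of 0 in lists of this size is no result about them. Of these 3 lists, 1 receptor or adaptor gene had an unadjusted p under 0.05 in WT and none in RLKO. Their medians were -0.04, -0.24 and -0.47 in RLKO and -0.29, -0.73 and -0.76 in WT cells. By mean FPKM over the 4 groups the most abundant of the kinase list were TBK1, at 23.4 to 32.9 FPKM, and MAP3K14, at 18.7 to 33.6 FPKM, though IKBKB was above 1 of them in some groups. By the same mean UBE2N and UBE2V1 led the ubiquitin list, at 151 and 67.2 FPKM, with RBCK1 close behind at 66.3 FPKM. TNFRSF1A, a receptor for TNF, led the receptor list with 169.9 FPKM in treated and 182 FPKM in untreated RLKO cells, and 149 FPKM in treated and 195 FPKM in untreated WT cells. Next was BIRC2, the constitutive relative of BIRC3, with 56.5 FPKM in treated and 61.9 FPKM in untreated RLKO cells, and 51.3 FPKM in treated and 73.1 FPKM in untreated WT cells.

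Of 13 other inhibitors Cuffdiff called none in RLKO, where 2 had an unadjusted p under 0.05, and 3 rose in WT. Here too the lack of a call in RLKO is no result, since 0.512% of all rows kept were called higher there. In WT that share was 4.48%. NFKBID, a further nuclear IkB protein, had 5.75 FPKM in treated and 4.82 FPKM in untreated RLKO cells, and 24.2 FPKM in treated and 3.44 FPKM in untreated WT cells, a log2 change of 0.06 in RLKO and 1.97 in WT. ZC3H12A, which encodes the mRNA-cutting Regnase-1, rose in WT by 1.17 and had -0.14 in RLKO. CYLD, a deubiquitinase, rose in WT by 0.84 and had 0.70 in RLKO without passing.

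Of 16 target genes 5 rose in RLKO and 11 in WT, with medians of 1.02 and 2.48. Of all rows kept, 0.512% were called higher in RLKO and 4.48% in WT, so the 2 counts cannot be compared directly. An unadjusted p under 0.05 was held by 11 of the 16 in RLKO and 12 in WT. IL6 changed by 6.02 and 6.11, CCL20 by 2.68 and 4.12 and IRF1 by 3.73 and 3.69 on the log2 scale in RLKO and WT, and all 3 rose in both. The difference of the responses, RLKO minus WT, was below 0 for 11 of the 16 target genes. Its median over them was -0.42, where that of the 8 members was -0.27 and that of protein-coding genes 0.47. TNF, IER3 and LTB were listed at 0 in every group, as was RNF31 of the ubiquitin list, and NFKBIL1 was under 0.1 FPKM. TNF, IER3, LTB and NFKBIL1 lie on chromosome 6. Like NFKBIB, these genes and RNF31 are given only as listed, and whether they were silent in the cells cannot be told.

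**Figure D4:**
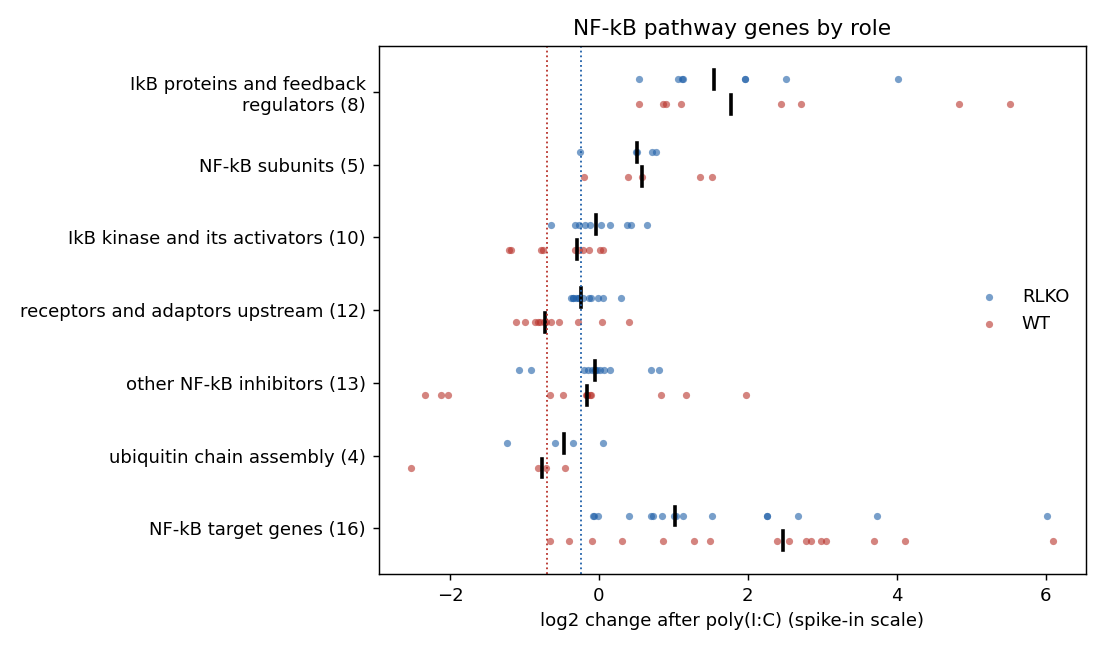
Log2 change of treated over untreated cells on the spike-in scale (horizontal axis) of the 8 measured members and of 6 lists of pathway genes, with the number of genes in parentheses, in RLKO (blue) and WT (red); dots are genes, black bars medians over genes, and dotted lines the medians of all protein-coding genes. The 8 members had medians of 1.54 in RLKO and 1.77 in WT, and the IkB kinase list -0.04 and -0.29.

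Genes whose pair of changes lay nearest to those of NFKBIZ and NFKBIA were sought among 7815 protein-coding genes of 10 FPKM or more in some group, by distance over the 2 log2 changes. Nearest to NFKBIZ were PLEKHA4 at a distance of 0.92, DHX58 at 1.10 and the immediate early gene FOS at 1.11. FOS changed by 1.92 in RLKO and 4.59 in WT. Nearest to NFKBIA were DDX60L at 0.05, NR2F1 at 0.08 and ZNFX1 at 0.18. PLEKHA4, FOS, DDX60L and NR2F1 rose in both genotypes. DHX58 rose in WT alone, but in RLKO cells it stood at 8.86 FPKM treated and 0.0421 FPKM untreated, without passing. ZNFX1 passed in neither, with 49.1 FPKM in treated and 11.3 FPKM in untreated RLKO cells. In WT cells ZNFX1 had 113 FPKM treated and 9.54 FPKM untreated. The likeness rests on 2 values per gene from 4 pooled levels.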

How the data were processed

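The authors' deposited table gave levels in FPKM, 1 value per group pooled over 3 samples, per the file headers. Its p-values and q-values are the authors' own, for treated against untreated cells of the same genotype, per the file headers. It gave GC content in percent (not used here), half-lives, lengths and normalised folds, as deposited by the authors. The submitters' processing notes name the build GRCh38.p12 and the tools TopHat2 2.0.6, Bowtie2 2.0.2, Cuffdiff 2.2.1, Trimmomatic 0.32 and FastQC; the sources used here do not give filters, strand handling or library scaling. Read depth is unknown.

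Rows marked HIDATA (86) or repeating an identifier were left out, and rows with 1 FPKM or more in some group were kept (22087). Each group was divided by the median ratio of 49 ERCC rows (mean of at least 1 FPKM) to their geometric mean; the factor of treated over untreated cells was 1.13 in RLKO and 1.53 in WT. The q threshold was 0.05. The computation of the ERCC scale was run on simulated data in which ERCC and gene rows shared 1 known factor per group. Such a run cannot test the spike-in RNAs themselves. Of the 49 ERCC rows, 32 were higher in treated than untreated RLKO cells, and 48 in treated than untreated WT cells. Of all 92 ERCC rows, Cuffdiff called 2 in WT and 0 in RLKO. Gene classes, coordinates and transcripts came from GENCODE release 29, promoters from RefSeq; transcripts were chosen by the deposited length, or else the longest. Named were all members, up to 3 called genes per list (or the 2 most abundant by mean FPKM), and the 3 genes nearest to NFKBIZ and to NFKBIA. HNRNPL, EIF3K, ECH1, MRPS12, PAK4, FBXO27, MAP4K1, RYR1, RASGRP4, ACP7, IKBKB, RBCK1, AL357060.1 and genes listed at 0 were named after their values were seen. The members and lists were chosen with earlier results of these data known. The check of the targeted gene is not reported here. Computation used Python 3.11.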

Additional observations from a re-analysis of the deposited data

How the results depend on the processing

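Alternatives were a pseudocount of 0.1 FPKM, FPKM as deposited, ERCC rows of 10 FPKM or more, median-ratio scaling over kept rows and the authors' constants (1.14 in RLKO, 1.56 in WT). Under these the median log2 change of the 8 members ran from 1.52 to 1.87 in RLKO and from 1.70 to 2.33 in WT, and no change of a member within a genotype turned its sign. The median difference of the responses ran from -0.66 in FPKM as deposited to -0.16 with the smaller pseudocount. At a q threshold of 0.01 the members called higher in RLKO numbered 0, since the smallest q in that column is 0.0107; at 0.1, and with a Benjamini-Hochberg adjustment of the deposited p-values over kept rows, counts stayed within 1.5 times. The share of rows called higher was 0.198% in RLKO and 2.06% in WT with no filter on low values, and 0.821% in RLKO over protein-coding rows alone. No paired analysis was possible because the table holds 1 pooled value per group, and for the same reason no replicate could be left out.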
